A study of Mus musculus with 40 samples.

Results

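The collagen genes of the mouse heart were followed after cardiomyocytes had been made to express interleukin 11 (*Il11*), a cytokine of the IL6 family. A gene was counted as a collagen gene when its name in the tables is Col, a number, the letter a and a number. It was kept at 0.5 CPM or more (the tables' name for reads scaled by 1 factor per library) in at least 3 libraries. By this rule 37 of 17646 listed genes were kept in male hearts and 37 of 17223 in female hearts. Of these, 36 were in both tables, *Col22a1* was in the male table alone and *Col25a1* in the female table alone, which gives 38 genes in all. In every library 28 of the male and 25 of the female genes reached 0.5 CPM. *Col11a1*, *Col17a1*, *Col24a1*, *Col26a1* and *Col6a5* in both sexes and *Col9a3* in females did so in no control library, and *Col25a1* in no induced library. Since these genes had to differ between groups to be kept, their values are given as a description.

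The study sequenced polyA RNA of mouse hearts, of both sexes, in 40 libraries. The labels say heart, and the paper names the tissue as left ventricle. Controls were mice heterozygous for the α-MHC-MerCreMer transgene (MCM, a Cre recombinase that cardiomyocytes express and tamoxifen activates) that lacked *Rosa26-Il11*, and they were given tamoxifen (labelled WT, with the time since then not given in the sources used here). CM-Il11-Tg mice carried 1 copy each of MCM and of *Rosa26-Il11*, so that tamoxifen switched on *Il11* in their cardiomyocytes. Tamoxifen was given at 20 mg/kg on 5 days from 8 weeks of age, and induced hearts were taken 1, 3 or 6 weeks later. A further group of CM-Il11-Tg mice was not given tamoxifen (uninduced), so in its comparison with control the effects of the transgene and of tamoxifen cannot be told apart. Each group holds 4 libraries, except male controls and male hearts at 6 weeks with 3 each, because 2 male libraries carry labels that name control in one place and 6 weeks in another and were left out. Each library is named for 1 heart, and p-values measure the spread between these hearts. The deposited tables were scaled separately for each sex, so each comparison was made within a sex.

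Collagens are built from 3 chains that wind into a triple helix, and each chain is the product of its own gene. The fibrillar collagens (types I, III and V in the heart) form the fibres between muscle cells that bear load, and they are made mainly by fibroblasts. Fibril-associated collagens sit on the surface of these fibres. Type IV collagen is the network of basement membranes around cardiomyocytes, capillaries and pericytes, and type VI forms beaded microfilaments near them. In cardiac fibrosis fibrillar collagen accumulates between the muscle cells and around vessels.

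The sequences just upstream of several collagen genes are shown because these genes rose or fell together, and because some of them face each other across 1 short region. Each window runs from 250 bases before to 50 bases after the start site and is taken from RefSeq on assembly GRCm38.p6, an earlier build than that of the reads. RefSeq held a window for 30 of the 38 genes and not for *Col12a1*, *Col14a1*, *Col1a1*, *Col22a1*, *Col26a1*, *Col4a3*, *Col5a2* or *Col9a3*. The letters are lower case, with capitals where 1 of 3 motifs was found on either strand. CAGAC is the core of a Smad motif. The letters of the CCAAT box were searched as well. The last was TATAAA, the core of the box that sets the start of many genes. None of the matches shown overlaps another. *Col3a1* lies at chr1:45311288-45311587 on the plus strand, *Col1a2* at chr6:4505368-4505667 on the plus strand and *Col16a1* at chr4:130047590-130047889 on the plus strand. *Col4a4* lies at chr1:82586800-82587099 on the minus strand and *Col4a1* at chr8:11312777-11313076 on the minus strand.
Col3a1: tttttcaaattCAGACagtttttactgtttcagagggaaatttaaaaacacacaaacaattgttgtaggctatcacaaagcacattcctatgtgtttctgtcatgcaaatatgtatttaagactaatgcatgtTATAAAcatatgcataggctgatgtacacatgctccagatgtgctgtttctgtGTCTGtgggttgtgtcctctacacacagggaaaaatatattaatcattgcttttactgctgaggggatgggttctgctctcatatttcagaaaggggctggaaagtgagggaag
Col1a2: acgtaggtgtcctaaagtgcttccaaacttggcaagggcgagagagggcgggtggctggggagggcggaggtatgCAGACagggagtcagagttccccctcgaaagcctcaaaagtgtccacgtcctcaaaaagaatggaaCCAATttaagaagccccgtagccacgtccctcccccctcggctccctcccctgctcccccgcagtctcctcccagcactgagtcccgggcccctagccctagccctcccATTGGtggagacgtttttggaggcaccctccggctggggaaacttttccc
Col16a1: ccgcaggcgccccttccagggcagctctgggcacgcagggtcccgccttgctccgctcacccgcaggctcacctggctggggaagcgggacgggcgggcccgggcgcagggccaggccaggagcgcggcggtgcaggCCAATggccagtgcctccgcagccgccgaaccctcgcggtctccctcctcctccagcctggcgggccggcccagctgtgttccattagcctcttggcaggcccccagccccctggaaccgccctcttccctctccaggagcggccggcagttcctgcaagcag
Col4a4: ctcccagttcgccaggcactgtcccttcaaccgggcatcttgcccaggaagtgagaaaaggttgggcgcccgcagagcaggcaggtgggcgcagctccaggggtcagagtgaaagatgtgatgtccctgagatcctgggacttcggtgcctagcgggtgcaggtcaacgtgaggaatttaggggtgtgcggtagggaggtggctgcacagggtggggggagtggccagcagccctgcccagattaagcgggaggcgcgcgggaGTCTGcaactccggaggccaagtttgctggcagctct
Col4a1: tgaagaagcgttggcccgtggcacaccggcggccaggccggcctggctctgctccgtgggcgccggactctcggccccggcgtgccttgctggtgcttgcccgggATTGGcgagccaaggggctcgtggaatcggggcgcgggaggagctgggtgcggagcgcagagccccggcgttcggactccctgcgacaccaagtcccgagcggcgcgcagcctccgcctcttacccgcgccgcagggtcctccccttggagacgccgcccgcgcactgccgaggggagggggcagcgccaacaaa

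The first 3 of these genes were higher in every induced group and *Col4a4* was lower in every induced group. Of the 30 genes with a window, CAGAC was present in 17, CCAAT in 11 and TATAAA in 4 (*Col11a2*, *Col13a1*, *Col17a1* and *Col3a1*). *Col18a1* and *Col6a2* had more than 1 window and were counted when any of them matched, while the shares of all windows below count each window. The letters TTCNNNGAA, the core of a STAT motif, were present in 2 (*Col28a1* and *Col6a5*) and in none of the 5 windows shown. Among the 32851 windows of the same length in the table, 49.594% held CAGAC, 37.408% CCAAT, 13.616% TATAAA and 8.298% TTCNNNGAA, so the shares among the collagen genes, at 56.667%, 36.667%, 13.333% and 6.667%, lie near those of all windows. *Col4a1* and *Col4a2* start 317 bases apart on opposite strands of chromosome 8, and *Col4a3* and *Col4a4* start 103 bases apart on opposite strands of chromosome 1 (GENCODE annotation of GRCm39, the build to which the reads were aligned). The exons of these pairs overlap by 311 and 159 bases, those of *Col18a1* overlap *Slc19a1* by 896 bases (12.7% of its exon length) and those of *Col5a1*, *Col16a1*, *Col6a6* and *Col20a1* overlap another gene by 91 to 133 bases. Whether counting used strand is not given in the sources used here, so in these stretches the reads of the partners cannot be told apart.

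The libraries held 16663513 to 65333832 reads on listed genes, and the transgene followed the labels. *Il11* was at 0, 0.114 and 0.147 CPM in the 3 male controls and at 0 to 0.166 CPM in the 4 female controls. In uninduced hearts it was at 16.5 to 23.3 CPM in males and 15.5 to 49.1 CPM in females, and in induced hearts it ran from 336 to 819 CPM in males and from 328 to 614 CPM in females. Male control replicate 4 was the most deeply sequenced library and the highest of the 3 male controls for most of the abundant collagen genes. In females, 1-week replicate 2 and 6-week replicate 2 stood apart by atrial muscle genes. They held *Myl7* at 52.3 and 346 CPM, against at most 0.529 in the other 18. These 2 libraries were also low in the nuclear RNA *Malat1*, as were uninduced replicate 4 and 6-week replicates 3 and 4. These 5 libraries held 236 to 330.5 CPM of *Malat1*, against 565 to 1240 CPM in the other 15. At 6 weeks only female replicate 1 was outside this set, and no female control was in it. In females, changes at 6 weeks and low *Malat1* can therefore hardly be told apart. Male 6-week replicate 4 was low in *Malat1* (371 CPM, against 796 to 1602 in the other males) and high in the globin gene *Hba-a1* (5733 CPM, against at most 2623), and it held the lowest summed collagen level of its group (5813 CPM, against 6662 and 8035). Their part in the male values at 6 weeks was not tested beyond leaving this library out, which gave 22 calls among the 37 collagen genes in place of 23.

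Summed levels of markers of the cells that make collagen, and of other cells of the heart, are given beside the collagen genes. Of a list of 6 fibroblast genes (*Pdgfra*, *Tcf21*, *Dcn*, *Lum*, *Gsn*, *Dpt*) all 6 were listed. Their summed level ran from 1168 to 1262 CPM in male controls and 1330 to 1412 CPM in uninduced males. In induced males it was at 1298 to 1556 CPM (1 week), 1357 to 1420 CPM (3 weeks) and 1448 to 1660 CPM (6 weeks), so that none of these groups overlapped control. In females the same sum ran from 1589 to 1774 CPM in controls and 1488 to 2030 CPM in uninduced hearts. After induction it was at 1393 to 2150 CPM (1 week), 1437 to 1783 CPM (3 weeks) and 1669 to 2616 CPM (6 weeks), so that each of these female groups overlapped control. A list of 6 genes of activated fibroblasts (*Postn*, *Cthrc1*, *Fap*, *Fn1*, *Acta2*, *Meox1*) summed to 175 to 409 CPM in male controls and 863 to 1124 CPM at 6 weeks, and to 181 to 373 CPM in female controls and 979 to 2217 CPM at 6 weeks. The summed level of 6 macrophage genes was at 347 to 564 CPM in male hearts at 6 weeks against 99.4 to 187 CPM in controls, and at 461 to 536 CPM against 97.6 to 119 CPM in females. That of 6 endothelial genes was at 592 to 734 CPM in males at 6 weeks against 920.4 to 1041 CPM in controls, and at 542 to 746 CPM against 833 to 953 CPM in females. That of 6 cardiomyocyte genes was at 27682 to 37072 CPM in males at 6 weeks against 45783 to 55578 CPM in controls, and at 26641 to 35212 CPM against 29463 to 45963 CPM in females, so the heart label held. The summed level of 6 mesothelial genes ran from 5.66 to 11.1 CPM in female controls, 12.1 to 31.5 CPM in uninduced females and, after induction, 27.9 to 55.6 CPM (1 week), 6.38 to 66.6 CPM (3 weeks) and 15.5 to 92.8 CPM (6 weeks). In males it was 6.86 to 8.41 CPM in controls and 6.90 to 31.1 CPM at 6 weeks. None of these genes was at 0 in every library. These sums are on the deposited scale described above. The part of these lists in the results that follow was not tested, and in whole tissue fewer cells of a type and less RNA per cell cannot be told apart.

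More collagen genes were higher than lower than control at every week in both sexes. Counted here are the 32 male and 30 female genes that reached 0.5 CPM in at least 1 control and 1 induced library, with limma and adjusted p under 0.05 over all genes tested. Of the 32 male genes 15 were higher and 5 lower at 1 week, where 18.9% of all genes tested were higher and 14.6% lower. At 3 weeks 12 were higher and 6 lower (13.2% and 8.1% of all genes), and at 6 weeks 13 were higher and 7 lower (16.2% and 10.9%). Of the 30 female genes 14 were higher and 4 lower at 1 week (15.3% and 13.1% of all genes), 13 and 4 at 3 weeks (16.8% and 14.5%) and 16 and 4 at 6 weeks (21.7% and 21%). The share of these genes called higher, 37.5% to 53.3%, was above that of all genes in each of these comparisons. The share called lower was 15.6%, 18.8% and 21.9% in males, close to that of all genes at 1 week and above it later, and 13.3% in females at each week, close to that of all genes at 1 and 3 weeks and below it at 6 weeks. The median log2 fold change of the same genes, on the scale of log2(CPM + 0.5) used throughout, was 0.45, 0.29 and 0.13 in males at 1, 3 and 6 weeks, where that of all genes was 0.02, 0.00 and -0.01. In females it was 0.56, 0.35 and 0.68, where that of all genes was -0.02 at each week. With the genes that reached 0.5 CPM in no control or no induced library counted as well, 20, 16 and 16 of 37 were higher and 5, 6 and 7 lower in males, and 17, 16 and 20 of 37 were higher and 5 lower at each week in females. The weeks share their control libraries.

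**Figure D1:**
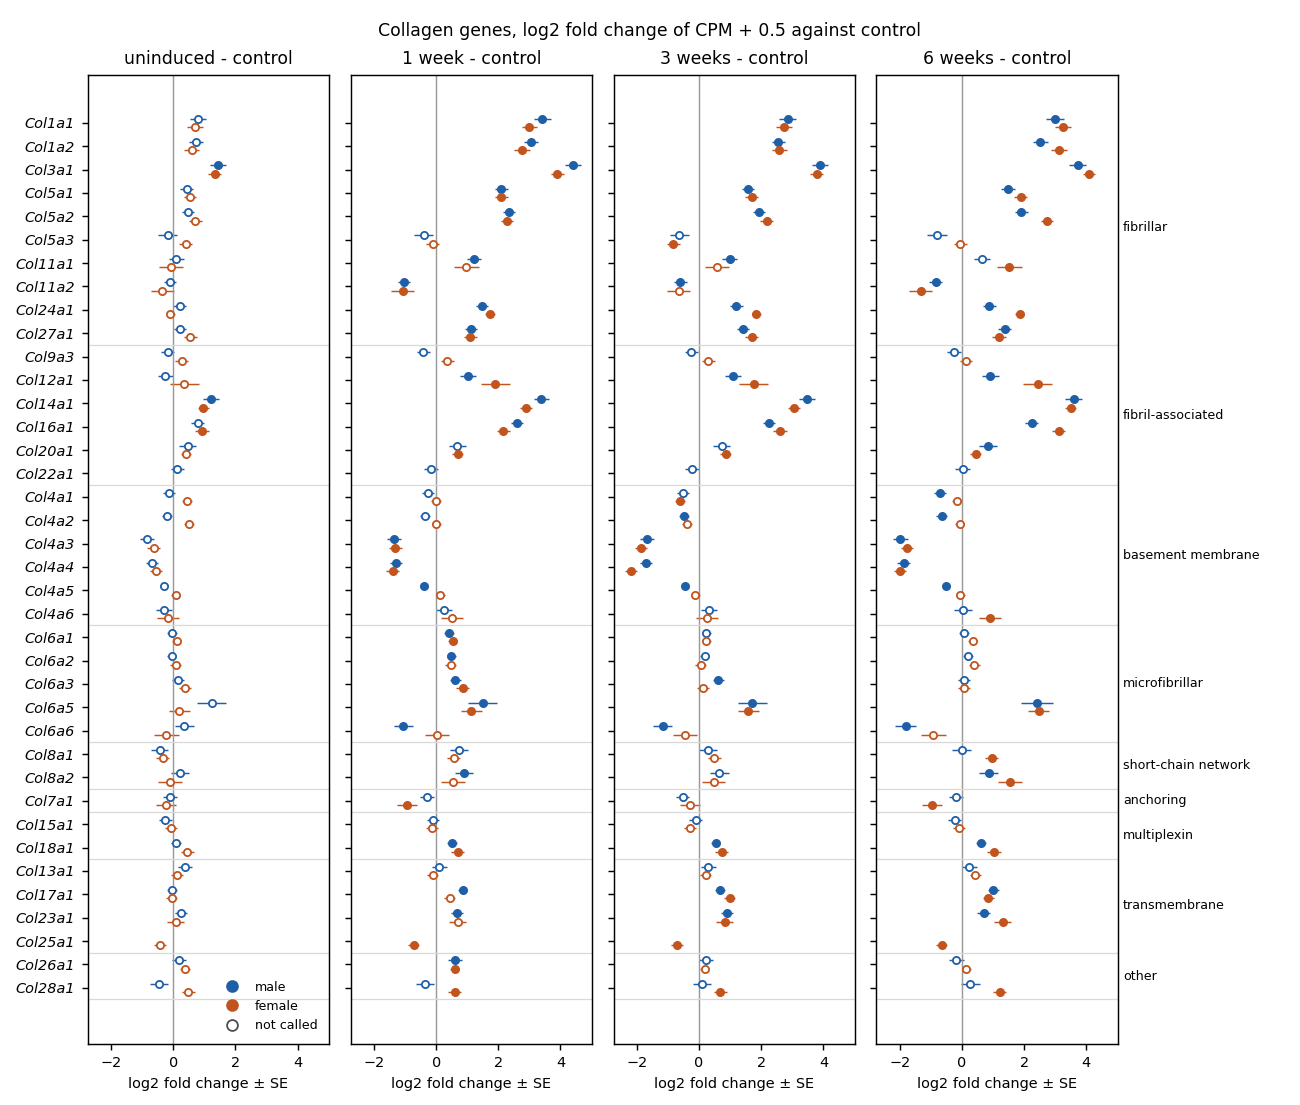
Log2 fold change of CPM + 0.5 against control (horizontal axis, points with bars of 1 SE) for each collagen gene (rows, grouped by type) in uninduced hearts and at 1, 3 and 6 weeks, in males (blue) and females (orange). Filled points passed an adjusted p of 0.05, genes that reached 0.5 CPM in no control or no induced library included. *Col3a1* stood farthest to the right in every panel, between 3.72 and 4.41 in induced hearts, and *Col4a3* and *Col4a4* lay between -1.30 and -2.20.

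Calls shared by the 2 sexes, which come from separate libraries and separate controls, are given as a description. The share of all genes tested that was called in both sexes was not taken. At 1 week 15 collagen genes were higher in both sexes, of 20 in males and 17 in females, at 3 weeks 14 of 16 and 16, and at 6 weeks 16 of 16 and 20. Lower in both were *Col11a2*, *Col4a3* and *Col4a4* at 1 and 6 weeks, and *Col4a3* and *Col4a4* at 3 weeks. *Col24a1* and *Col6a5* at each week, *Col26a1* at 1 week and *Col17a1* at 3 and 6 weeks are among the genes higher in both, and these reached 0.5 CPM in no control library. No collagen gene was called in opposite directions in the 2 sexes at any week. A difference between the sexes in the size of a change was not tested. *Col13a1*, *Col15a1* and *Col9a3* passed the test in no comparison of an induced group with control, nor did *Col22a1* in males.

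Reads on collagen genes made up 0.182% to 0.338% of the reads of a male control library and 0.927% to 1.21% of a male library at 1 week. The summed level of the collagen genes was 2693 ± 788 CPM (SD, n = 3) in male controls, 9909 ± 1222 at 1 week (n = 4), 7376 ± 1510 at 3 weeks (n = 4) and 6837 ± 1121 at 6 weeks (n = 3). In females it was 2201 ± 217 CPM (n = 4) in controls, and 8726 ± 2365 (1 week), 7530 ± 1522 (3 weeks) and 9819 ± 2719 (6 weeks) after induction. The lowest induced library of either sex, at 5362 CPM, lay above the highest control, at 3600.1 CPM. The ratio of means to control was 3.68, 2.74 and 2.54 in males and 3.97, 3.42 and 4.46 in females at 1, 3 and 6 weeks. Among female 6-week libraries only replicate 1 was outside the set low in *Malat1*. It had the lowest sum of its group, at 7699 CPM, against at most 2410 CPM in female controls. Without male control replicate 4 and the other libraries numbered 4, the male ratios were 4.47, 3.57 and 3.28.

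**Figure D2:**
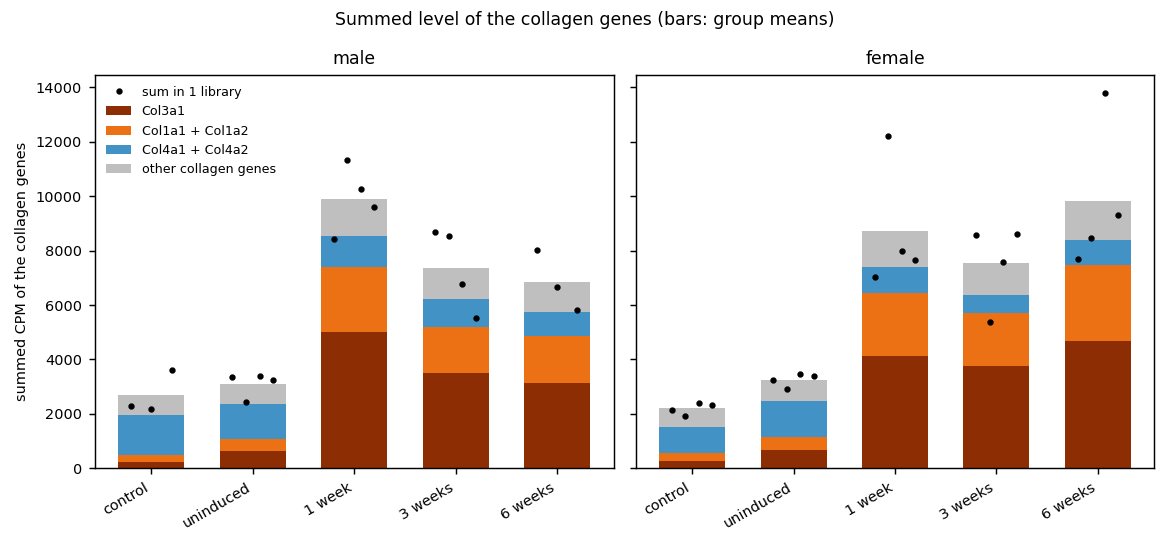
Summed CPM of the collagen genes in male and female hearts (vertical axis from 0), with bars of group means divided into *Col3a1*, *Col1a1* and *Col1a2*, *Col4a1* and *Col4a2* and all other collagen genes, and 1 dot for the sum in each library. Every induced library lay above every control library, and *Col4a1* and *Col4a2* fill 54.8% of the male control sum and 12% of the male sum at 1 week.

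The make-up of this sum changed with its size. *Col4a1* and *Col4a2* held 54.8% of the collagen reads in male controls and 12%, 13.9% and 13.2% at 1, 3 and 6 weeks, and in females 43.1% in controls and 11.2%, 8.98% and 9.12%. *Col1a1* and *Col3a1* together held 13.4% in male controls and 63.1%, 59.4% and 59.3% after induction, and 18.9% in female controls and 61.1%, 63.3% and 62.2%. *Col3a1* alone passed from 8.96% ± 1.48 (SD, n = 3) of the collagen reads in male controls to 50.3% ± 0.762 (n = 4) at 1 week, and from 12.3% ± 0.891 to 47.4% in females (n = 4 each). Shares of reads give more weight to long transcripts. Per kilobase of exon, the level of *Col4a1* was 111 ± 30.4 CPM and that of *Col3a1* 24.2 ± 11.3 CPM in male controls (SD, n = 3). At 6 weeks *Col3a1* stood at 305 ± 71.4 CPM per kilobase, *Col1a1* at 143 ± 19.98 and *Col4a1* at 66.7 ± 9.33 in males (n = 3).

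*Col3a1*, the single chain of type III collagen, had the largest change among the collagen genes in each comparison with control. *Col3a1* (ENSMUSG00000026043) lies on chromosome 1 from 45350698 to 45395840 of GRCm39, on the plus strand. In males it was at 179.5, 184 and 382 CPM in the 3 controls, then 4200.4, 5831, 5153 and 4778 (1 week), 4121, 3976, 3232 and 2654 (3 weeks) and 3861, 3157 and 2394 (6 weeks). The female libraries held 283, 214, 299 and 288 CPM in the 4 controls, then 3395, 5791, 3815 and 3522 (1 week), 4158, 2775, 3855 and 4284 (3 weeks) and 3788, 3929, 6386 and 4547 (6 weeks). Every induced library of each sex lay above every control and every uninduced library of that sex. The log2 fold change in males was 4.41 ± 0.26 (SE) at 1 week (adjusted p = 2.91e-10), 3.88 ± 0.26 at 3 weeks (adjusted p = 1.35e-09) and 3.72 ± 0.28 at 6 weeks (adjusted p = 6.23e-09). In females it was 3.90 ± 0.20 (adjusted p = 1.67e-11), 3.79 ± 0.20 (adjusted p = 1.64e-11) and 4.08 ± 0.20 (adjusted p = 4.12e-12), so that the fitted levels were 21.2 times control in males at 1 week and 16.9 times control in females at 6 weeks.

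Both chains of type I collagen, the stiff fibre of scar and tendon, rose as well. *Col1a1* (ENSMUSG00000001506, chromosome 11, 94827050 to 94843868 of GRCm39, plus strand) was at 105, 91.2 and 168 CPM in male controls, then 936, 1658, 1432 and 1114 (1 week), 1261, 1091, 725 and 527 (3 weeks) and 1088, 843 and 884 (6 weeks). In females it was at 133, 124, 178 and 155 CPM in controls, then 815, 1869, 1049.7 and 1155 (1 week), 1141, 609.7, 1043 and 1209 (3 weeks) and 1003, 1172, 2177 and 1448 (6 weeks). The groups did not overlap, and female 1-week replicate 2 and 6-week replicate 3 were the highest of the female libraries. The log2 fold change of *Col1a1* was 3.41 ± 0.27, 2.86 ± 0.27 and 2.99 ± 0.29 in males and 3.00 ± 0.25, 2.73 ± 0.25 and 3.25 ± 0.25 in females at 1, 3 and 6 weeks (SE, adjusted p from 2.02e-09 to 2.1e-07). *Col1a2*, the second chain, was at 113, 108 and 188 CPM in male controls and 898, 773 and 637 at 6 weeks, and at 157, 127, 172 and 157 in female controls and 914, 1251, 1957 and 1373 at 6 weeks. Its log2 fold change was 3.04 ± 0.22, 2.55 ± 0.22 and 2.52 ± 0.24 in males and 2.76 ± 0.25, 2.58 ± 0.25 and 3.12 ± 0.25 in females (adjusted p from 3.15e-09 to 1.58e-07). Both chains were called in the same direction under each alternative that was run.

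**Figure D3:**
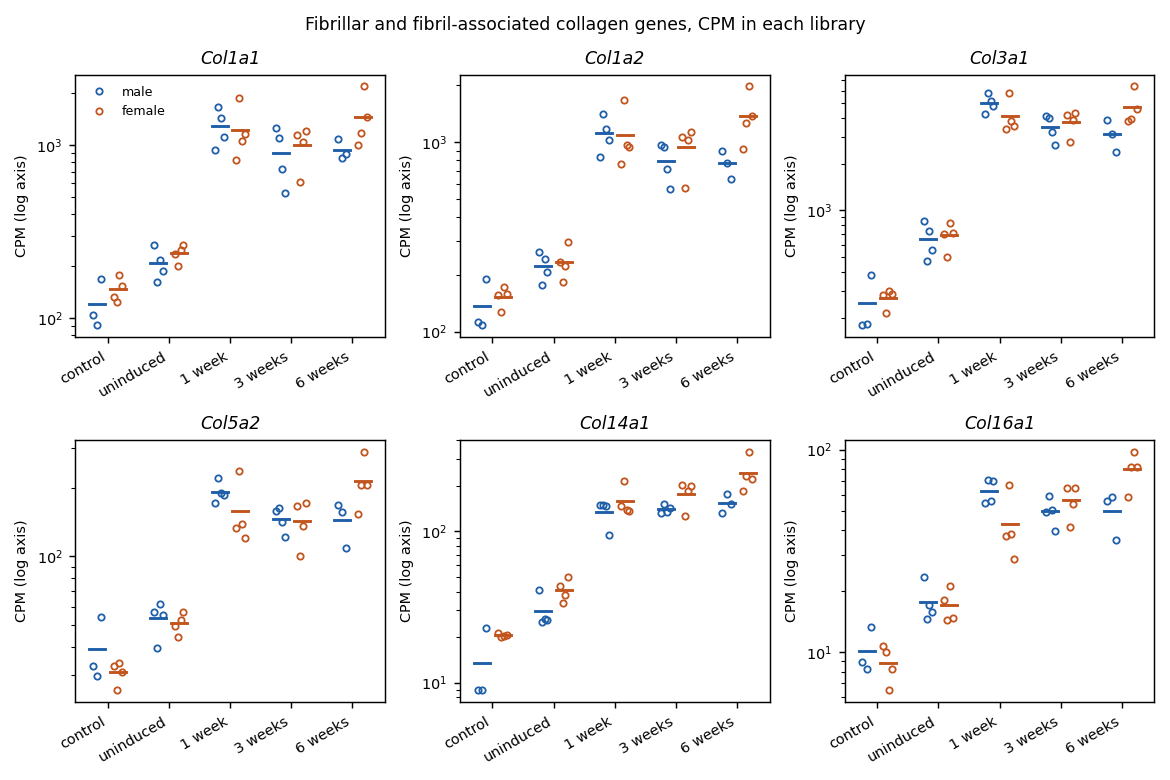
CPM of 6 fibrillar and fibril-associated collagen genes (vertical log axes) in each library (open circles) of control, uninduced and induced hearts, with lines at group means, in males (blue) and females (orange). Every induced library lay above every control and uninduced library of its sex for these 6 genes, and for *Col3a1* the uninduced libraries also lay above the controls, at 466 to 858 CPM in males and 499 to 834 CPM in females.

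Type V collagen is laid down inside type I fibres and limits their width, and its chains did not move together. *Col5a1* was at 56.7, 56.2 and 102 CPM in male controls and 249.9, 318, 314 and 307 at 1 week, with a log2 fold change of 2.1 ± 0.20, 1.58 ± 0.20 and 1.49 ± 0.22 over the 3 weeks (adjusted p from 2.67e-07 to 4e-05). In females the log2 fold change of *Col5a1* was 2.09 ± 0.21, 1.69 ± 0.21 and 1.89 ± 0.21 (adjusted p from 1.33e-07 to 2.09e-06). *Col5a2* was at 32.9, 29.6 and 54.2 CPM in male controls and 171, 220.5, 189 and 185 at 1 week, and at 32.9, 25.7, 34 and 31 in female controls and 154, 205, 288 and 206 at 6 weeks. Its log2 fold change was 2.33 ± 0.19, 1.94 ± 0.19 and 1.90 ± 0.21 in males and 2.28 ± 0.20, 2.17 ± 0.20 and 2.74 ± 0.20 in females (adjusted p from 1.3e-09 to 1.09e-06), with no overlap between induced and control libraries. *Col5a3*, the third chain, was called higher in no comparison. It was at 28.5, 26.2, 42.4 and 39.4 CPM in female controls and 26.8, 16.3, 14.7 and 18.8 at 3 weeks, where it was lower (-0.83 ± 0.21, adjusted p = 0.00454) with overlapping groups, and in males its log2 fold change was -0.40 ± 0.31, -0.64 ± 0.31 and -0.80 ± 0.33 and passed the test at no week (adjusted p = 0.0768 at 6 weeks).

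The fibrillar genes that the control heart held at low levels were divided. *Col27a1*, a fibrillar collagen best known from cartilage, was at 4.53, 4.36 and 5.75 CPM in male controls and 8.95, 14.7, 18.8 and 14.7 at 3 weeks, and at 6.16, 6.19, 3.45 and 4.21 in female controls and 18.3, 13.2, 18 and 18.2 at 3 weeks. It was higher at every week, with log2 fold changes between 1.10 and 1.69 (adjusted p from 4.31e-06 to 0.000639). *Col24a1*, a fibrillar collagen of developing bone and cornea, reached 0.5 CPM in induced hearts only. It was at 0.075, 0.0757 and 0.0651 CPM in male controls (2 to 4 reads per library) and 0.904, 1.71, 1.16 and 0.749 at 1 week, and at 0.0431, 0.0968, 0.15 and 0.222 in female controls (1 to 4 reads) and 1.78, 1.72, 2.32 and 1.33 at 6 weeks. Its fitted log2 differences were 1.48 ± 0.20, 1.20 ± 0.20 and 0.88 ± 0.22 in males and 1.73 ± 0.15, 1.83 ± 0.15 and 1.86 ± 0.15 in females, and at such low control levels they depend on the 0.5 that was added. *Col11a1* also reached 0.5 CPM in induced hearts only, with at most 1 read in a male control and 3 in a female control. It was at 0.368, 0.692, 0.765 and 1.05 CPM in males at 1 week and 0.317, 2.49, 1.62 and 1.2 CPM in females at 6 weeks, where the highest value is that of a library with atrial genes. Its partner chain *Col11a2* fell instead, from 7.68, 5.83 and 4.61 CPM in male controls to 2.24, 2.44, 2.73 and 3.15 at 1 week (-1.04 ± 0.20, adjusted p = 0.000543). *Col11a2* was also lower in males at 3 weeks (-0.60 ± 0.20, adjusted p = 0.0371) and 6 weeks (-0.85 ± 0.21, adjusted p = 0.00583). In females it was lower at 1 week (-1.08 ± 0.37, adjusted p = 0.0357) and 6 weeks (-1.33 ± 0.37, adjusted p = 0.00752). Its calls in males at 3 weeks and in females at 1 week were lost in 10 of 32 and 9 of 36 alternatives. The female call at 6 weeks was lost in 2 of 36, without the libraries numbered 2 and without the 5 low in *Malat1*. Leaving out those 5 leaves 1 female library at 6 weeks.

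Among the fibril-associated collagens, *Col14a1*, *Col16a1* and *Col12a1* rose. *Col14a1* (chromosome 15, 55171140 to 55384199 of GRCm39, plus strand), whose product binds type I fibrils and is thought to regulate their growth, was at 8.88, 8.9 and 22.9 CPM in male controls, then 150.2, 149, 146 and 94.7 (1 week), 133, 153, 134 and 143 (3 weeks) and 133, 177 and 151 (6 weeks). The female libraries held 21.3, 20.1, 20.4 and 20.6 CPM in controls, then 146, 214, 139 and 137 (1 week), 203, 126, 184 and 199.9 (3 weeks) and 186, 231, 336 and 223 (6 weeks). The groups did not overlap, and the log2 fold change was 3.39 ± 0.25, 3.47 ± 0.25 and 3.59 ± 0.27 in males and 2.89 ± 0.18, 3.05 ± 0.18 and 3.5 ± 0.18 in females (adjusted p from 5.67e-12 to 6.46e-09). In males at 6 weeks this change stood close to that of *Col3a1*.

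*Col16a1*, whose product helps to anchor fibrils and cells, was at 8.88, 8.26 and 13.2 CPM in male controls and 54.7, 71, 55.8 and 69.6 at 1 week, and at 10.7, 10.02, 6.45 and 8.26 in female controls and 58.4, 81.9, 97.6 and 82.1 at 6 weeks. Its log2 fold change was 2.59 ± 0.20, 2.25 ± 0.20 and 2.25 ± 0.21 in males and 2.16 ± 0.22, 2.60 ± 0.22 and 3.11 ± 0.22 in females (adjusted p from 5.98e-10 to 1.94e-07), with no overlap with control. *Col12a1*, the collagen of stressed fibres and tendon, was at 1.09, 1.7 and 1.82 CPM in male controls and 3.78, 4.98, 3.71 and 2.91 at 3 weeks, where its log2 fold change was 1.09 ± 0.25 (adjusted p = 0.00343). In females it was at 1.08, 0.968, 0.65 and 1.16 CPM in controls, 2.88, 17.5, 4.22 and 2.52 at 1 week and 4.28, 14.3, 10.2 and 4.59 at 6 weeks, with log2 fold changes of 1.90 ± 0.46 (adjusted p = 0.00392) and 2.44 ± 0.46 (adjusted p = 0.000293). Its highest values at both times were in the female libraries that also held atrial muscle genes and the most *Fmod* and *Chad*. Their part in the change was not tested beyond leaving these libraries out, which kept both calls. *Col20a1* was higher in females at every week and in males at 6 weeks, with log2 fold changes from 0.44 to 0.85, and its calls at 6 weeks were lost in 9 of 32 alternatives in males and 15 of 36 in females. *Col9a3* and *Col22a1* were at most 1.05 CPM in every library.

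The type IV genes, which make the basement membrane, were lower or not called, except for *Col4a6* in females at 6 weeks. *Col4a1* and *Col4a2* are the chains of every vascular basement membrane and were the most abundant collagen genes of control hearts, also per kilobase of exon. *Col4a1* (ENSMUSG00000031502, chromosome 8, 11248423 to 11362826 of GRCm39, minus strand) was at 746, 661 and 1089 CPM in male controls, then 666, 582, 681 and 794 (1 week), 658, 653, 535 and 443 (3 weeks) and 575, 439 and 480.2 (6 weeks). The female libraries held 509.9, 486, 639.9 and 636 CPM in controls, then 524, 655, 545 and 539.9 (1 week), 473, 316, 307 and 396 (3 weeks) and 482, 445, 733 and 410.2 (6 weeks). It was lower in males at 6 weeks (-0.72 ± 0.20, adjusted p = 0.0116) and in females at 3 weeks (-0.62 ± 0.16, adjusted p = 0.00578), with no overlap with control in either. *Col4a2* was lower in males at 3 weeks (-0.49 ± 0.17, adjusted p = 0.0422) and 6 weeks (-0.65 ± 0.18, adjusted p = 0.0101) and was not called in females, where at 3 weeks it gave -0.39 ± 0.15 (adjusted p = 0.0556). The *Col4a2* call in males at 3 weeks was lost in 12 of 32 alternatives, among them the replicate block and the fit of those 2 groups alone. The calls in males at 6 weeks were lost without male control replicate 4, the highest of the controls, and each of these calls was lost when the scaling factors in the deposited values were left out, under which the median log2 fold change of all genes stood at 0.16 to 0.33 in induced hearts. Pericytes also make these chains, and the summed level of 6 pericyte and smooth muscle genes was 586 to 673 CPM in males at 6 weeks against 909 to 1119 CPM in controls, and 533 to 653 CPM in females at 3 weeks against 876 to 965 CPM. Their part was not tested.

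**Figure D4:**
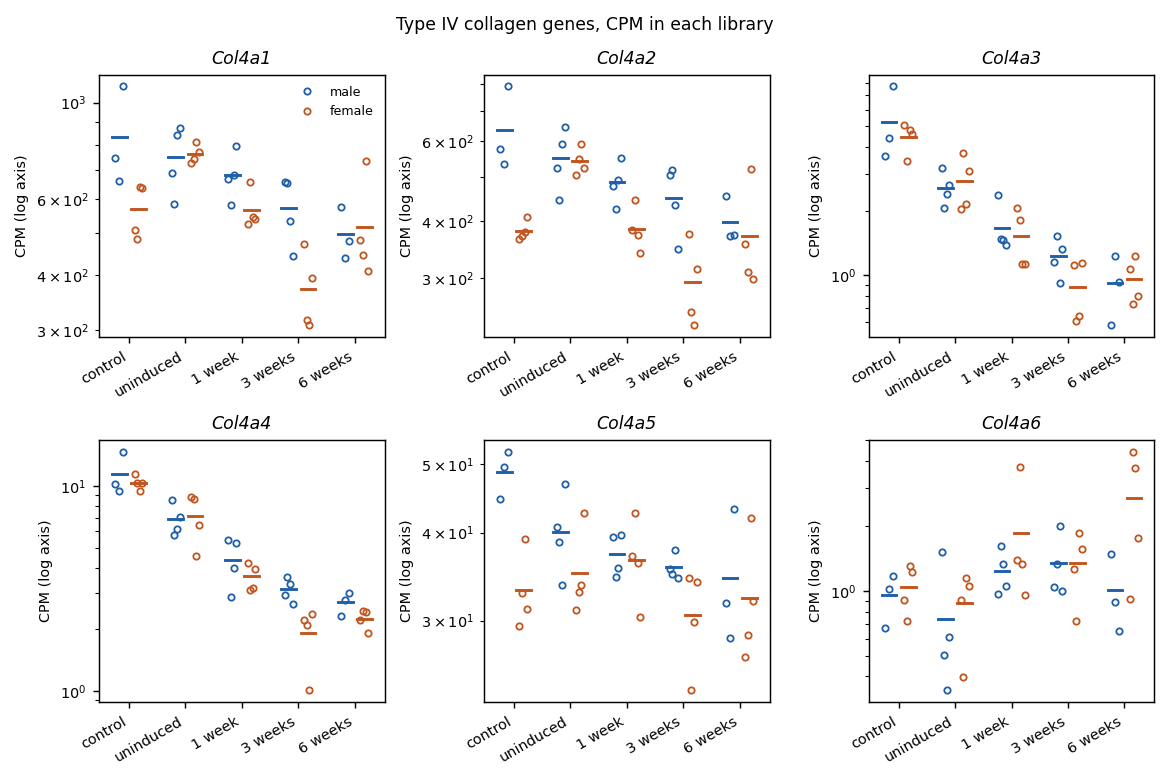
CPM of the 6 type IV collagen genes (vertical log axes) in each library (open circles) of control, uninduced and induced hearts, with lines at group means, in males (blue) and females (orange). *Col4a3* and *Col4a4* step down from control to 6 weeks in both sexes, from 3.44 to 7.7 CPM in controls to 0.583 to 1.24 CPM at 6 weeks for *Col4a3*, while *Col4a1*, *Col4a2* and *Col4a5* overlap between most groups in females.

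*Col4a3* and *Col4a4*, chains of a second type IV network best known from the kidney and the lung, were lower at every week in both sexes. *Col4a4* (ENSMUSG00000067158, chromosome 1, 82426144 to 82564800 of GRCm39, minus strand) was at 10.2, 9.43 and 14.7 CPM in male controls, then 5.42, 2.86, 3.99 and 5.24 (1 week), 2.93, 3.62, 3.32 and 2.65 (3 weeks) and 2.33, 2.79 and 3.01 (6 weeks). In females it was at 11.4, 10.4, 9.41 and 10.3 CPM in controls, then 4.23, 3.12, 3.18 and 3.95 (1 week), 2.23, 2.09, 1.01 and 2.38 (3 weeks) and 2.22, 2.45, 2.42 and 1.91 (6 weeks). No induced library reached the lowest control, and the log2 fold change was -1.30 ± 0.20, -1.70 ± 0.20 and -1.87 ± 0.21 in males and -1.40 ± 0.20, -2.20 ± 0.20 and -1.98 ± 0.20 in females (adjusted p from 2.62e-08 to 6.12e-05). *Col4a3*, which faces it, was at 3.64, 4.39 and 7.7 CPM in male controls and 0.583, 1.24 and 0.933 at 6 weeks, and at 5.08, 3.44, 4.8 and 4.6 in female controls and 1.07, 0.73, 1.23 and 0.801 at 6 weeks. Its log2 fold change was -1.36 ± 0.23, -1.68 ± 0.23 and -1.98 ± 0.25 in males and -1.31 ± 0.20, -1.87 ± 0.20 and -1.77 ± 0.20 in females (adjusted p from 4.53e-07 to 0.00017). The calls for both genes held under each alternative that was run. Their X-linked relatives differed: *Col4a5* was lower in males at each week by a small amount (log2 fold change -0.38 to -0.51) and passed the test at no week in females. These male calls were lost in 8, 6 and 5 of 32 alternatives, each time also without the scaling factors. *Col4a6* was called in females at 6 weeks (0.91 ± 0.35, adjusted p = 0.043), a call lost in 13 of 36 alternatives. Its 2 highest values among the 20 female libraries, 4.42 and 3.76 CPM, were in the libraries with atrial genes, and without these it gave 0.65 (adjusted p = 0.103 with limma).

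The 3 main chains of type VI collagen, *Col6a1*, *Col6a2* and *Col6a3*, changed by far less than the fibrillar genes and mostly at 1 week. *Col6a3* was at 57.7, 44.3, 73.5 and 59.4 CPM in female controls and 88.2, 123, 113 and 98.5 at 1 week, with a log2 fold change of 0.85 ± 0.20 (adjusted p = 0.00286) and no overlap, and at 59.9, 55.5, 90.8 and 43.9 at 6 weeks (0.06 ± 0.20, adjusted p = 0.826). In males *Col6a3* was higher at 1 week (0.62 ± 0.19, adjusted p = 0.0146) and 3 weeks (0.62 ± 0.19, adjusted p = 0.0201), with groups that overlapped through male control replicate 4 (86.1 CPM). *Col6a1* was higher at 1 week in males (0.41 ± 0.15, adjusted p = 0.0361, lost in 12 of 32 alternatives, among them the replicate block, the fit of those 2 groups alone, edgeR and DESeq2) and females (0.54 ± 0.15, adjusted p = 0.00866). *Col6a2* was higher at 1 week in males (0.48 ± 0.15, adjusted p = 0.015) and gave 0.47 ± 0.18 in females (adjusted p = 0.0557). Each of the male calls at 1 week was lost without male control replicate 1 or replicate 3, and female 1-week replicate 2 was the highest female library for all 3 chains.

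The other type VI genes were low. *Col6a5* was at 0.0375, 0.114 and 0.0326 CPM in male controls (1 to 3 reads per library) and 5.71, 1.98 and 1.24 at 6 weeks, and at 0.0431, 0, 0.050 and 0 in female controls (at most 1 read) and 0.634, 3.39, 4.88 and 2.47 at 6 weeks. Its fitted log2 differences from 1.13 to 2.47 in induced groups depend on the 0.5 that was added, and it reached 0.5 CPM in no control library. *Col6a6*, its neighbour on chromosome 9, was lower in males at 1 week (-1.06), 3 weeks (-1.17) and 6 weeks (-1.81), and in females it passed the test at no week (-0.92 at 6 weeks, adjusted p = 0.0643).

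The chains of type VIII collagen, a short-chain network of vessel walls and of the endothelium, rose in females at 6 weeks. *Col8a1* was at 18.7, 16.6, 17.7 and 19.3 CPM in female controls and 26.2, 32.6, 55.8 and 33.1 at 6 weeks (0.96 ± 0.21, adjusted p = 0.0012). In males *Col8a1* was at 13.6, 19.4 and 32.9 CPM in controls and 51.5, 37.8, 35.5 and 20.3 at 1 week (0.73 ± 0.28, adjusted p = 0.0538), and the fitted value at 6 weeks was -0.01 ± 0.30. *Col8a2* was at 0.474, 0.484, 0.55 and 0.776 CPM in female controls and 1.07, 5.41, 2.49 and 2.84 at 6 weeks (1.54 ± 0.38, adjusted p = 0.00298), and in males it was called at 1 week (adjusted p = 0.0243) and at 6 weeks (adjusted p = 0.0477, lost in 23 of 32 alternatives). The female calls at 6 weeks were lost when the 5 libraries low in *Malat1* were left out, which leaves 1 female library at 6 weeks that is assumed to vary like the other groups.

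Of the multiplexins, which sit at the border of basement membranes and carry long sugar chains, *Col18a1* rose and *Col15a1* was not called. *Col18a1*, the precursor of endostatin, was at 14.2, 13.4 and 21.7 CPM in male controls and 28, 20.6 and 27.2 at 6 weeks, and at 12.7, 13.5, 13.5 and 16.6 in female controls and 22.4, 38.7, 36.6 and 22.5 at 6 weeks. Its log2 fold change was 0.51 ± 0.15, 0.53 ± 0.15 and 0.62 ± 0.16 in males and 0.69 ± 0.21, 0.72 ± 0.21 and 1.03 ± 0.21 in females (adjusted p from 0.000668 to 0.0185). The male calls were lost in 4, 6 and 3 of 32 alternatives and the female calls in 5, 2 and 1 of 36. The loss in females at 6 weeks came without the 5 libraries low in *Malat1*. *Col15a1* was at 99.7, 102 and 196 CPM in male controls and 122, 92.4 and 109 at 6 weeks, and at 126, 122, 165 and 155 in female controls and 112, 116, 215 and 104 at 6 weeks, with log2 fold changes from -0.31 to -0.11 over the 3 weeks in both sexes.

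The remaining genes were low, with *Col23a1* the highest of them at 2.97 to 7.73 CPM in females at 6 weeks. Of the transmembrane collagens, *Col17a1* had at most 5 reads in any control library and was at 0.753, 0.847 and 0.653 CPM in males and 0.793, 0.344, 0.738 and 0.647 CPM in females at 6 weeks. *Col23a1* was higher in males at each week and in females at 3 and 6 weeks, with log2 fold changes from 0.68 to 1.32. *Col13a1* was not called in either sex, and *Col25a1*, kept in females alone, was at 0.861, 0.532, 0.50 and 0.998 CPM in controls and 0.0793, 0.387, 0.316 and 0.308 at 6 weeks and reached 0.5 CPM in control and uninduced hearts only. *Col7a1*, the anchoring fibril of skin, was lower in females at 1 week (-0.93 ± 0.32, adjusted p = 0.0365) and 6 weeks (-0.97 ± 0.32, adjusted p = 0.0217), calls that were lost in 12 and 9 of 36 alternatives. *Col28a1* was higher in females at each week (0.60 to 1.22) and not called in males, with its calls at 1 and 3 weeks lost in 13 and 6 of 36 alternatives. The genes that passed the rule with the fewest libraries were *Col25a1*, *Col11a1* and *Col26a1* in females and *Col26a1* in males, each at 0.5 CPM or more in 5 libraries.

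The rise was present at 1 week, and 1 difference between the weeks passed the test. Among the male hearts limma called no collagen gene for 3 weeks against 1 week, 6 weeks against 1 week or 6 weeks against 3 weeks, where 0.0177%, 0.165% and 0 of all genes tested were called in either direction. At an unadjusted p under 0.05 there were 8, 15 and 2 of them, of which 7, 14 and 1 were lower at the later time, and edgeR and DESeq2 also called 0. The share of all genes at that unadjusted p was taken in neither sex, so such counts are given as a description. Among the female hearts *Col16a1* was higher at 6 weeks than at 1 week (0.94 ± 0.22, adjusted p = 0.0356), 1 of 37 collagen genes beside 1.03% of all genes. No female collagen gene was called by limma for 3 weeks against 1 week or for 6 weeks against 3 weeks, where 0.218% and 0 of all genes were called. At an unadjusted p under 0.05 there were 11 and 16, of which 9 and 3 were lower at the later time, edgeR called 0 in both, and DESeq2 called 2 and 1. For 6 weeks against 1 week there were 14, of which 5 were lower at 6 weeks. The *Col16a1* difference was lost in 13 of 36 alternatives, among them the replicate block and edgeR's test on recovered reads. *Col3a1* gave -0.69 ± 0.26 in males and 0.18 ± 0.20 in females for 6 weeks against 1 week (adjusted p = 0.234 and adjusted p = 0.735).

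Uninduced CM-Il11-Tg hearts, in which *Il11* was far below the induced level and above control, held more of a few collagens than control hearts. *Col3a1* was at 858, 466, 736 and 557 CPM in the 4 uninduced males, all above the 3 controls (1.45 ± 0.26, adjusted p = 0.0075), and at 702, 499, 834 and 715 CPM in the 4 uninduced females, all above the 4 controls (1.33 ± 0.20, adjusted p = 0.000528). *Col14a1* was at 40.9, 25.1, 26.5 and 26 CPM in uninduced males (1.21 ± 0.25, adjusted p = 0.0247) and 43.3, 33.5, 37.8 and 49.8 CPM in uninduced females (0.96 ± 0.18, adjusted p = 0.00327). *Col16a1* was higher in uninduced females (0.92 ± 0.22, adjusted p = 0.0217) and gave 0.78 ± 0.20 in uninduced males (adjusted p = 0.0912). These are 2 of 37 genes higher in males, where 0.561% of all genes tested were higher and 0.0354% lower. In females they are 3 of 37, where 2.41% were higher and 0.466% lower. No collagen gene was called lower by limma in either sex. At an unadjusted p under 0.05 there were 3 lower in each, and that share of all genes was not taken. DESeq2 called 4 higher and 2 lower in males and 5 higher in females. The male *Col3a1* call was lost without control replicate 1 or 3, and the male *Col14a1* call was lost without either of these, without uninduced replicate 1 and with edgeR. In females the *Col16a1* call was lost in 6 of 36 alternatives and the *Col14a1* call in 1, without the libraries numbered 4. *Col1a1* was at 265, 161, 218 and 189 CPM in uninduced males (adjusted p = 0.254) and 236, 200.5, 247 and 266 CPM in uninduced females (adjusted p = 0.158), and the summed collagen level was 3110 ± 451 CPM in males and 3260 ± 252 CPM in females (n = 4 each), or 1.15 and 1.48 times control.

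Ratios of 2 collagen genes within a library, each as CPM + 0.5, hardly depend on how the library was scaled. The ratio of *Col1a1* to *Col3a1* had a geometric mean of 0.504 in male controls and 0.253, 0.247 and 0.303 at 1, 3 and 6 weeks, and of 0.543 in female controls and 0.289, 0.261 and 0.304. No induced library of either sex reached the lowest control of its sex. The means of uninduced hearts lay between, at 0.322 in males and 0.350 in females. Single uninduced libraries ran from 0.296 to 0.346 in males and 0.297 to 0.402 in females and overlapped those at 6 weeks in both sexes. The exact two-sided permutation test gave p = 0.0286 at each week in females (4 libraries against 4), and in males p = 0.0571 at 1 and 3 weeks (4 against 3) and p = 0.1 at 6 weeks (3 against 3), in each case the smallest p the design allows. Over the family of 36 ratio tests, no adjusted p was under 0.05, and none could have been, since the smallest that the design allows after adjustment is 0.0571.

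The 2 chains of type I collagen, which enter the triple helix in unequal numbers, shifted by less. The ratio of *Col1a1* to *Col1a2* was 0.888 in male controls and 1.15, 1.10 and 1.22 at 1, 3 and 6 weeks, without overlap, and 0.959 in female controls and 1.13, 1.06 and 1.05, with overlap at 3 and 6 weeks. The ratio of *Col5a1* to *Col5a2* was 1.82 in male controls and 1.55, 1.41 and 1.37 after induction, without overlap, and in females 1.94 in controls and 1.70, 1.38 and 1.07, without overlap at 3 and 6 weeks. The exact permutation p for this ratio in females was 0.171 at 1 week and 0.0286 at 3 and 6 weeks (4 libraries against 4, adjusted p 0.268 and 0.129). The paired type IV genes *Col4a1* and *Col4a2* held ratios of 1.25 to 1.40 in males in every group, and in females fell outside the range of controls at 3 weeks alone (1.27 against 1.48). Over all 36 comparisons, 19 had groups that did not overlap and 8 had an unadjusted p under 0.05.

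**Figure D5:**
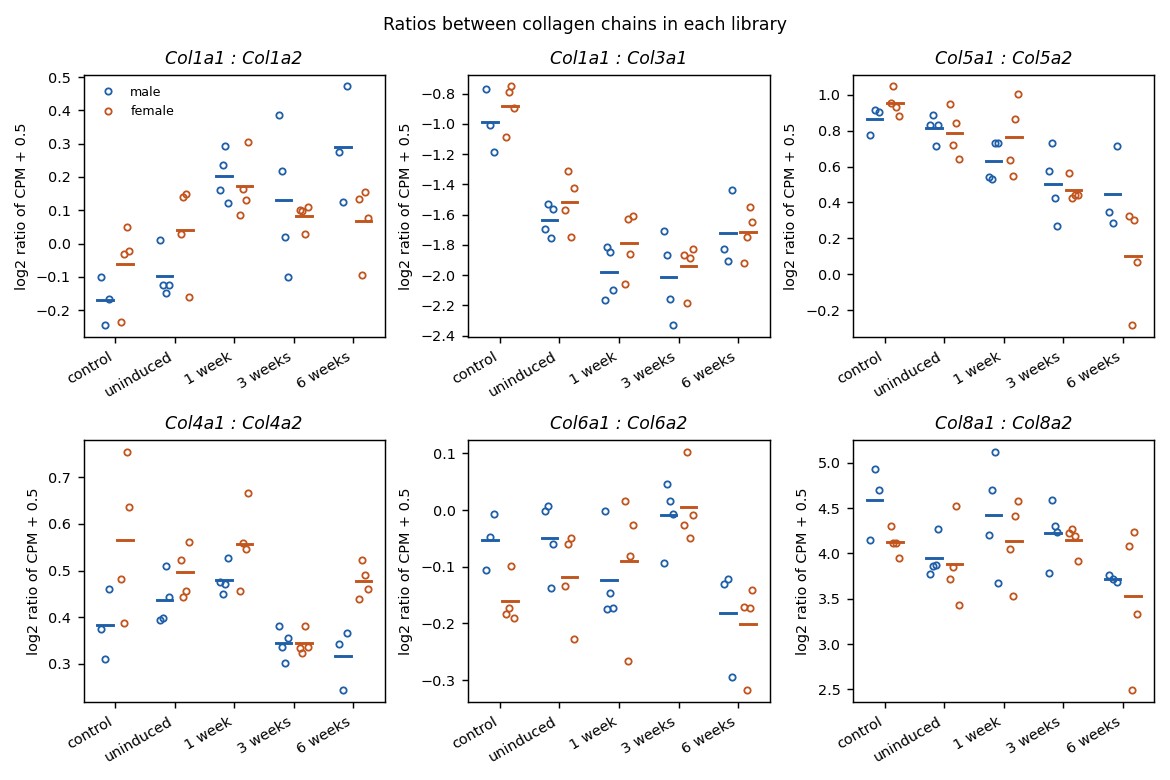
Log2 ratio of CPM + 0.5 of 6 pairs of collagen chains (vertical axes) in each library (open circles) of control, uninduced and induced hearts, with lines at group means, in males (blue) and females (orange). *Col1a1* to *Col3a1* lies at -1.18 to -0.75 in controls and at -2.33 to -1.44 in induced hearts, and *Col4a1* to *Col4a2* overlaps between most groups.

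Genes that modify, fold, export, process, cross-link or break down collagen, and genes of its receptors, were taken as 1 list. It held 48 genes tested in males and 47 in females, and they moved with the fibrillar genes in part. In males 26, 25 and 25 were higher and 8, 6 and 7 lower at 1, 3 and 6 weeks, and in females 27, 25 and 30 were higher and 5 at each week lower, beside the shares of all genes given for the collagen genes. Genes that reached 0.5 CPM in no control library, *P4ha3* among them, were not left out of these counts. The whole lysyl oxidase family (*Lox*, *Loxl1*, *Loxl2*, *Loxl3* and *Loxl4*), which cross-links collagen fibres, was higher at every week in both sexes. *Lox* was at 2.89, 3.64 and 3.97 CPM in male controls and 51.4, 60.3 and 39.9 at 6 weeks (3.66 ± 0.31, adjusted p = 3.26e-08), and at 2.84, 1.94, 3.4 and 2.61 in female controls and 67.3, 74, 140.1 and 63.6 at 6 weeks (4.70 ± 0.29, adjusted p = 7.35e-11). Of the genes that trim procollagen, 5 of 8 in males and 5 of 7 in females were higher at 6 weeks. Of 6 genes of collagen breakdown and uptake, 5 were higher at each week in both sexes, among them *Ctsk*, a protease that cuts the triple helix, which was at 3.37, 2.35 and 3.48 CPM in male controls and 24.4, 23.4 and 19.3 at 6 weeks (2.69 ± 0.24, adjusted p = 9.32e-08) and in females gave 2.79 ± 0.22 (adjusted p = 4.51e-09).

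The modifying and folding enzymes were less uniform. Of 18, 9, 8 and 8 were higher and 3, 2 and 2 lower in males, and 9, 7 and 12 were higher and 4, 3 and 4 lower in females at 1, 3 and 6 weeks. *P4ha3*, a subunit of the prolyl hydroxylase that stabilises the helix, was at 0.0375, 0 and 0.114 CPM in male controls and 5.0, 7.59 and 3.78 at 6 weeks, and at 0.129, 0, 0.050 and 0 in female controls and 6.3, 9.58, 9.8 and 6.13 at 6 weeks. It reached 0.5 CPM in no control library and had to differ between groups to be kept, so its values are given as a description. *Colgalt2*, which adds galactose to collagen, was at 7.42, 8.63 and 12.5 CPM in male controls and 3.98, 4.66 and 5.08 at 6 weeks (-0.95 ± 0.18, adjusted p = 0.000498), and was lower in females as well (-1.45 ± 0.15, adjusted p = 1.61e-07). *Plod1*, a lysyl hydroxylase, gave -0.40 ± 0.08 (adjusted p = 0.000554) and *P3h4* gave -0.37 ± 0.14 (adjusted p = 0.0357) in females at 6 weeks, and without the scaling factors *P3h4* turned to a small positive value at 6 weeks and *Plod1* at 1 week. *Tll2*, a procollagen protease (-1.29 ± 0.27, adjusted p = 0.00121), and *Mmp13*, a collagenase (-0.92 ± 0.27, adjusted p = 0.0147), were lower in males at 6 weeks. Over the alternatives their values ran from -3.78 to -0.50 and from -2.04 to -0.39. The *Mmp13* call was lost in 5 of 31 alternatives, among them the fit of those 2 groups alone.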

How the data were processed

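PolyA RNA of mouse hearts was sequenced with a directional kit. The authors counted reads per gene on GRCm39 with featureCounts, as the submitters' processing notes name it, and deposited 1 table of CPM for each sex. The deposited signal is called CPM, but 100% of values were within 0.001 of a whole read after division by 1 factor for each library, so read counts were recovered. The members and lists were chosen with earlier results of these data known. The groups of each sex were fitted with limma 3.58.1 (R 4.3.3) on log2(CPM + 0.5), for genes that reached 0.5 in 3 or more libraries (16931 male, 16956 female). P-values were adjusted by Benjamini-Hochberg over all genes tested and called under 0.05. Alternatives used edgeR 4.0.16 and DESeq2 1.42.0 on recovered reads. Counts of calls without genes that reached 0.5 in no control or no induced library were added after seeing the data. Scripts were tested on simulated data. Genes were named for a mean of at least 20 CPM in both sexes, for a call of size 1 or more on the log2 scale in both sexes in the same week, or as members of a ratio. Of the collagen pathway list, the 3 largest rises and 3 largest falls at 6 weeks in each sex were named. Other named genes were chosen after their values were seen. Libraries held 16663513 to 65333832 reads on listed genes. Replicates of a group differed by more than counting error.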

Additional observations from a re-analysis of the deposited data

Results flagged for a closer look

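Of 208 groups of 4 libraries tested for a library far from the rest, 16 had one, where chance gives about 1 in 20. In uninduced males, replicate 1 was high for *Col14a1* (40.9 CPM, against 25.1 to 26.5 in the others), and replicate 2 was low for *Col5a1* (73.5 CPM, against 98.6 to 102) and for the summed collagen level (2440 CPM, against 3250 to 3380). In males at 1 week, *Col14a1* was low in replicate 4 (94.7 CPM, against 146 to 150), *Col4a3* was high in replicate 1 (2.38 CPM, against 1.39 to 1.48), *Col5a1* was low in replicate 1 (250 CPM, against 307 to 318) and *Col5a3* was high in replicate 4 (49.4 CPM, against 26.4 to 27.9). *Col5a3* was also high in uninduced female replicate 2 (60.0 CPM, against 39.3 to 42.3).

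Female 1-week replicate 2, which held atrial muscle genes and was low in *Malat1*, stood far above the other 3 libraries of its group for 6 genes. It held 17.5 CPM of *Col12a1* (2.52 to 4.22 in the others), 214 CPM of *Col14a1* (137 to 146), 655 CPM of *Col4a1* (524 to 545), 238 CPM of *Col5a2* (120 to 139), 36.6 CPM of *Col5a3* (28.9 to 30.1) and 184 CPM of *Col6a1* (135 to 143). This library was also high in *Fmod* and *Chad*, and the part of these and of the atrial genes in its values was not tested. *Col27a1* was low in female 3-week replicate 2 (13.2 CPM, against 18 to 18.3), and *Col15a1* was high in female 6-week replicate 3 (215 CPM, against 104 to 116).

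The 2 male libraries whose labels conflict entered no comparison. The one whose title says transgenic at 6 weeks held 0.597 CPM of *Il11*, where the male controls held 0 to 0.147. The one whose title says control held 511 CPM of *Il11*, 2710 CPM of *Col3a1*, 961 CPM of *Col1a1* and 159 CPM of *Col14a1*, where the male controls held at most 382, 168 and 22.9 CPM of the 3 collagen genes.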

How the results depend on the processing

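The counts of calls here include the genes that reached 0.5 CPM in no control or no induced library. The share of all genes called under these settings was not taken. Requiring a log2 fold change of at least 1 left 16, 14 and 13 of the 25, 22 and 23 collagen genes called in males at 1, 3 and 6 weeks. It left 14 and 13 of 22 and 21 in females at 1 and 3 weeks, 1 of 3 in uninduced females and 0 for 6 weeks against 1 week in females. Leaving out libraries gave 15 to 27 calls in males at 1 week and 15 to 24 at 6 weeks, each lowest without the libraries numbered 3. In uninduced males (2 calls) the counts were 1 with the replicate block, 1 with a fit of those 2 groups alone, 1 with edgeR, 6 with DESeq2 (4 higher, 2 lower) and 0 to 5 when libraries were left out. In uninduced females (3 calls) they were 6 without scaling factors, 6 with only the 2 groups, 5 with DESeq2, 6 without the 5 libraries low in *Malat1* and 1 to 5 when libraries were left out. Without those 5 libraries, 15 of 25 calls were left in females at 6 weeks. For 6 weeks against 1 week in females (1 call) the counts were 2 with a pseudocount of 2, 2 with the replicate block (1 higher, 1 lower, with the *Col16a1* call lost), 0 with only the 2 groups, 0 with edgeR, 3 with DESeq2, 0 without the 5 libraries and 0 to 4 when libraries were left out. For 3 weeks against 1 week in females (0 calls), DESeq2 gave 2 and leaving out a library 1, and for 6 weeks against 3 weeks (0 calls) DESeq2 gave 1 and leaving out a library 1. The summed level relative to control in males ran from 1.022 to 1.37 in uninduced hearts, 3.31 to 4.47 at 1 week, 2.40 to 3.57 at 3 weeks and 2.16 to 3.28 at 6 weeks when libraries were left out, each highest without those numbered 4. Without scaling factors it was 4.65 in males at 1 week, 1.65 in uninduced females and 5.08, 4.41 and 5.87 in females at 1, 3 and 6 weeks. Without scaling factors *Plod1* in females at 1 week turned to 0.11 and *P3h4* in females at 6 weeks to 0.0217. The cause of these changes was not tested. Same-numbered libraries did not deviate together (mean correlation 0.01 in males and 0.03 in females, lowest -0.13 and -0.34), and the replicate block changed 7 of 210 single-gene calls. The scaling alternative and the single-library and library-set omissions were chosen after seeing the data. Genes with at most 5 reads in control libraries are limited by depth.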
